A study of Mus musculus with 14 samples.

Results

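The expression of 10 mouse genes that protect cells from death or carry death signals was followed in *p65*(-/-) mouse embryonic fibroblasts (MEFs) that had been given back p65 or acetylation-deficient p65. The genes were *Birc2*, *Birc3*, *Cflar*, *Bcl2l1*, *Bcl2*, *Casp8*, *Casp4*, *Ripk1*, *Ripk3* and *Fas*. They were chosen by name, and every feature on the array whose gene name equals one of these was taken. This gave 22 features, of 41174 that are not controls, for 10 of the 27962 gene names on the array. All 22 features passed the filter on dim signals and were tested.

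The data were 14 one-colour arrays, each from a separate culture starved overnight, all from one *p65*(-/-) parental line and therefore all without their own p65. Cells carrying wild type p65 were measured on 3 arrays without TNFα (0 h) and on 3 arrays after 3 h with 30 ng/ml mouse TNFα. The other lines were measured only after 3 h of TNFα at that dose, namely the mutant KTR (K310/314/315R, lysines exchanged for arginines) on 3 arrays, the mutant K314/315R on 2 arrays and the empty vector pTV on 3 arrays. Each line was a pool of cells infected with a lentivirus that carried myc-tagged p65 or the empty vector and was selected with blasticidin, and how much p65 each line made is not measured by these arrays. An effect of TNFα can be read in wild type cells only, because no other line was measured at 0 h.

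TNFα binding to its receptor builds a complex around RIPK1 in which cIAP1 and cIAP2, encoded by *Birc2* and *Birc3*, attach ubiquitin chains and so activate NF-κB, of which p65 is the main activating subunit. NF-κB then induces genes that hold back the second, killing arm of the same pathway. There caspase-8 drives apoptosis, the caspase-8-like protein c-FLIP (*Cflar*) restrains it, and RIPK1 with RIPK3 drives necroptosis when caspase-8 is blocked. BCL-2 and BCL-XL (*Bcl2* and *Bcl2l1*) guard the mitochondrial arm, *Fas* encodes a death receptor that can itself be induced by NF-κB, and caspase-4 (also called caspase-11 in the mouse) senses intracellular lipopolysaccharide and triggers pyroptosis.

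Levels are given as log2 of the background-corrected Cy3 intensity relative to the 75th percentile of the same array, so a level of 0 means a feature at that percentile. They are compared between groups for one feature, never between features. A difference passed the test when limma's p, adjusted over all tested features, was under 0.05 on the gene's brightest feature. The 75th percentile lay between 967 and 1442 intensity units on the 14 arrays, and 49.9 to 57.7% of spots were well above background. Arrays of one group correlated with a Pearson's r of 0.984 to 0.995. Arrays 1 to 3 of wild type at both times, KTR and pTV lay together on slides 1 to 3, while both K314/315R arrays lay on slide 4, which held no other group and was read with another software version, so in each comparison with K314/315R the slide and the cell line cannot be told apart. Of 8 fibroblast markers, 7 were well above background on all 14 arrays and *Pdgfrb* on 13. Of these markers, *Pdgfrb* and *Thy1* differed most between pTV and wild type cells at 3 h. The mean *Pdgfrb* level was 3.14 in pTV and 5.13 in wild type cells, and that of *Thy1* 1.91 and 0.72. The summed linear level of the 8 was 1042 to 1242 in pTV and 1087 to 1242 in wild type at 3 h. The blood cell markers *Ptprc*, *Itgam*, *Emr1* and *Aif1* were well above background on 0 arrays. The summed linear level of the 8 blood cell markers, relative to the 75th percentile, was 1.65 to 1.70 in wild type at 0 h, 1.98 to 2.15 in wild type at 3 h, 2.28 to 3.84 in KTR, 2.61 to 2.99 in K314/315R and 2.24 to 3.16 in pTV, and *Cd14* and *Csf1r* were the markers of this list detected on most arrays (14 and 13). Of 6 epithelial markers, *Cdh1*, *Tacstd1* and *Cldn4* were above background on 0 arrays, *Krt8* on 14, *Krt14* on 12 and *Krt18* on 5, among them all 3 pTV arrays. The mean *Krt18* level was −2.94 in pTV and −5.46 in wild type cells at 3 h, and the summed linear level of the 6 was 0.324 to 0.348 in wild type at 0 h, 0.236 to 0.417 in wild type at 3 h, 0.298 to 0.327 in KTR, 0.294 to 0.512 in K314/315R and 0.372 to 0.485 in pTV. The part of any of these lists in the results was not tested. *Rela*, the gene of p65, has 2 features, of which the brighter differed by 0.35 (log2) between wild type and pTV cells (adjusted p = 0.213) and the dimmer by 0.61 (adjusted p = 0.0218). No source used here says whether these features read the introduced or the disrupted *Rela* transcript, and they do not check the labels.

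Of the genes, *Birc2*, *Birc3*, *Casp4* and *Fas* were higher both with TNFα in wild type cells and with p65 compared to the empty vector, and the promoters of these genes are printed to show the sequence around their start sites. They are from RefSeq (GRCm38.p6), 250 bases before to 50 bases after an annotated start, 5′ to 3′ on the gene's strand, and capitals mark a match to the 10-base κB consensus, the motif that NF-κB dimers bind.
Birc2 promoter, chr9:7837008-7837307, strand minus: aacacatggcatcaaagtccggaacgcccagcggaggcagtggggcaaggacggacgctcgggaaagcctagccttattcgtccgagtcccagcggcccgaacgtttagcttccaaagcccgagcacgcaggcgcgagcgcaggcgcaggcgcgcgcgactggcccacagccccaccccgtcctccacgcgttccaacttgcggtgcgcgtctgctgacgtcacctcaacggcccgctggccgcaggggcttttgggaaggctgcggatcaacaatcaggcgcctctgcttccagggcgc
Birc3 promoter, chr9:7873121-7873420, strand minus: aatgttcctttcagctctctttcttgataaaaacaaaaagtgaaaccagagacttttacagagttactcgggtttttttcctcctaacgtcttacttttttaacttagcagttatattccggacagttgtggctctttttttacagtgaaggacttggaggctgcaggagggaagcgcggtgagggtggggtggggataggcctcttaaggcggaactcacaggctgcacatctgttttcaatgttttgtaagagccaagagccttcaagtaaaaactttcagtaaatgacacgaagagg
Casp4 promoter, chr9:5308599-5308898, strand plus: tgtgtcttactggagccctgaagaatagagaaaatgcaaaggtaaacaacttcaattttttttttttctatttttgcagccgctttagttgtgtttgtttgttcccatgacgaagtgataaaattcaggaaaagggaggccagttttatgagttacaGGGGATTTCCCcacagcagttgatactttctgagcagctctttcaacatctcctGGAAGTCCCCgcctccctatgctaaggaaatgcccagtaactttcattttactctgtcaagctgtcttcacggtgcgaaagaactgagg
Fas promoter, chr19:34290409-34290708, strand plus: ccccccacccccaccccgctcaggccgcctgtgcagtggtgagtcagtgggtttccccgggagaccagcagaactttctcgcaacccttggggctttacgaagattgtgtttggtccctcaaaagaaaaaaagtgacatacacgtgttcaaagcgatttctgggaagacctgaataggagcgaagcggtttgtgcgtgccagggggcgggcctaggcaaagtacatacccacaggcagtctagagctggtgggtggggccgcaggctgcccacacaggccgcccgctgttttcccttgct
The κB consensus was searched on both strands of all 32817 RefSeq promoters of this length, and 8.46% held it. Of the 10 genes it was found in *Casp4* and in 1 of the 3 *Bcl2l1* promoters. The *Casp4* promoter held 3 matches that begin 93, 92 and 39 bases before the start, of which the first 2 overlap. A second *Casp4* start, 11 bases downstream of the first, lies behind the same matches. *Birc2* also has a second annotated start, whose promoter (chr9:7836757-7837056) is not printed and held no κB match. The paired motif GAAANNGAAA, the core of the element bound by interferon-activated factors, was found in 3.43% of all promoters and in *Cflar* and 1 of the 2 *Ripk1* promoters. A match is a description of the letters only, and NF-κB sites outside these windows were not searched. *Birc2* and *Birc3* are neighbours on chromosome 9 with 0 genes listed between them, and *Cflar* and *Casp8* lie on chromosome 1 with 1 listed gene between them.

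The inhibitor of apoptosis genes are taken first. RNA came from whole cultures, so fewer cells that express a gene and less of its RNA per cell cannot be told apart. *Birc2* (cIAP1) had levels of 0.99, 0.85 and 0.85 in wild type cells at 0 h and 1.55, 1.37 and 1.40 at 3 h. In KTR cells the levels were 1.39, 1.25 and 1.28, in K314/315R cells 1.74 and 1.47, and in pTV cells 0.21, 0.08 and 0.11. The pTV arrays were the lowest and the unstimulated wild type arrays the next lowest, and neither overlapped with any TNFα-treated line that carried p65. *Birc3* (cIAP2) had levels of 2.17, 1.805 and 1.94 in wild type cells at 0 h and 3.46, 3.18 and 3.17 at 3 h. In KTR cells it was at 3.32, 3.15 and 3.16, in K314/315R cells at 3.47 and 3.26, and in pTV cells at 2.11, 1.87 and 1.86. The pTV cells with TNFα thus lay in the range of wild type cells without it, whereas the 3 lines with p65 overlapped at 3 h.

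TNFα raised *Birc2* 1.46-fold (log2 difference 0.54, SE 0.10, adjusted p = 0.0073) and *Birc3* 2.45-fold (log2 difference 1.29, SE 0.13, adjusted p = 1.3e-04) in wild type cells. Compared to pTV cells, wild type cells at 3 h had 2.47-fold more *Birc2* (adjusted p = 1.8e-06) and 2.50-fold more *Birc3* (adjusted p = 1.3e-05). Within slides 1, 2 and 3 the log2 difference of wild type over pTV was 1.34, 1.28 and 1.29 for *Birc2* and 1.35, 1.30 and 1.31 for *Birc3*, so the 3 pairs gave nearly one value. Neither gene passed the test between KTR and wild type cells, where the log2 difference was −0.13 for *Birc2* (95% interval −0.34 to 0.08) and −0.06 for *Birc3* (−0.33 to 0.22). For K314/315R over wild type the intervals were −0.06 to 0.41 and −0.21 to 0.40. A second, dim *Birc3* feature gave 1.52 (log2) for wild type over pTV (adjusted p = 0.0083), with wild type at −3.10, −1.99 and −3.64. With normexp background correction this was 0.91 (adjusted p = 0.9997). With TNFα the second feature gave 1.17 (adjusted p = 0.0726, and 0.0280 with the slide as a block). Both values have the direction of the first feature. For K314/315R over wild type the second feature gave −0.77 (adjusted p = 0.316). It did not pass for KTR over pTV (adjusted p = 0.0708) or K314/315R over pTV (adjusted p = 0.167).

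**Figure D1:**
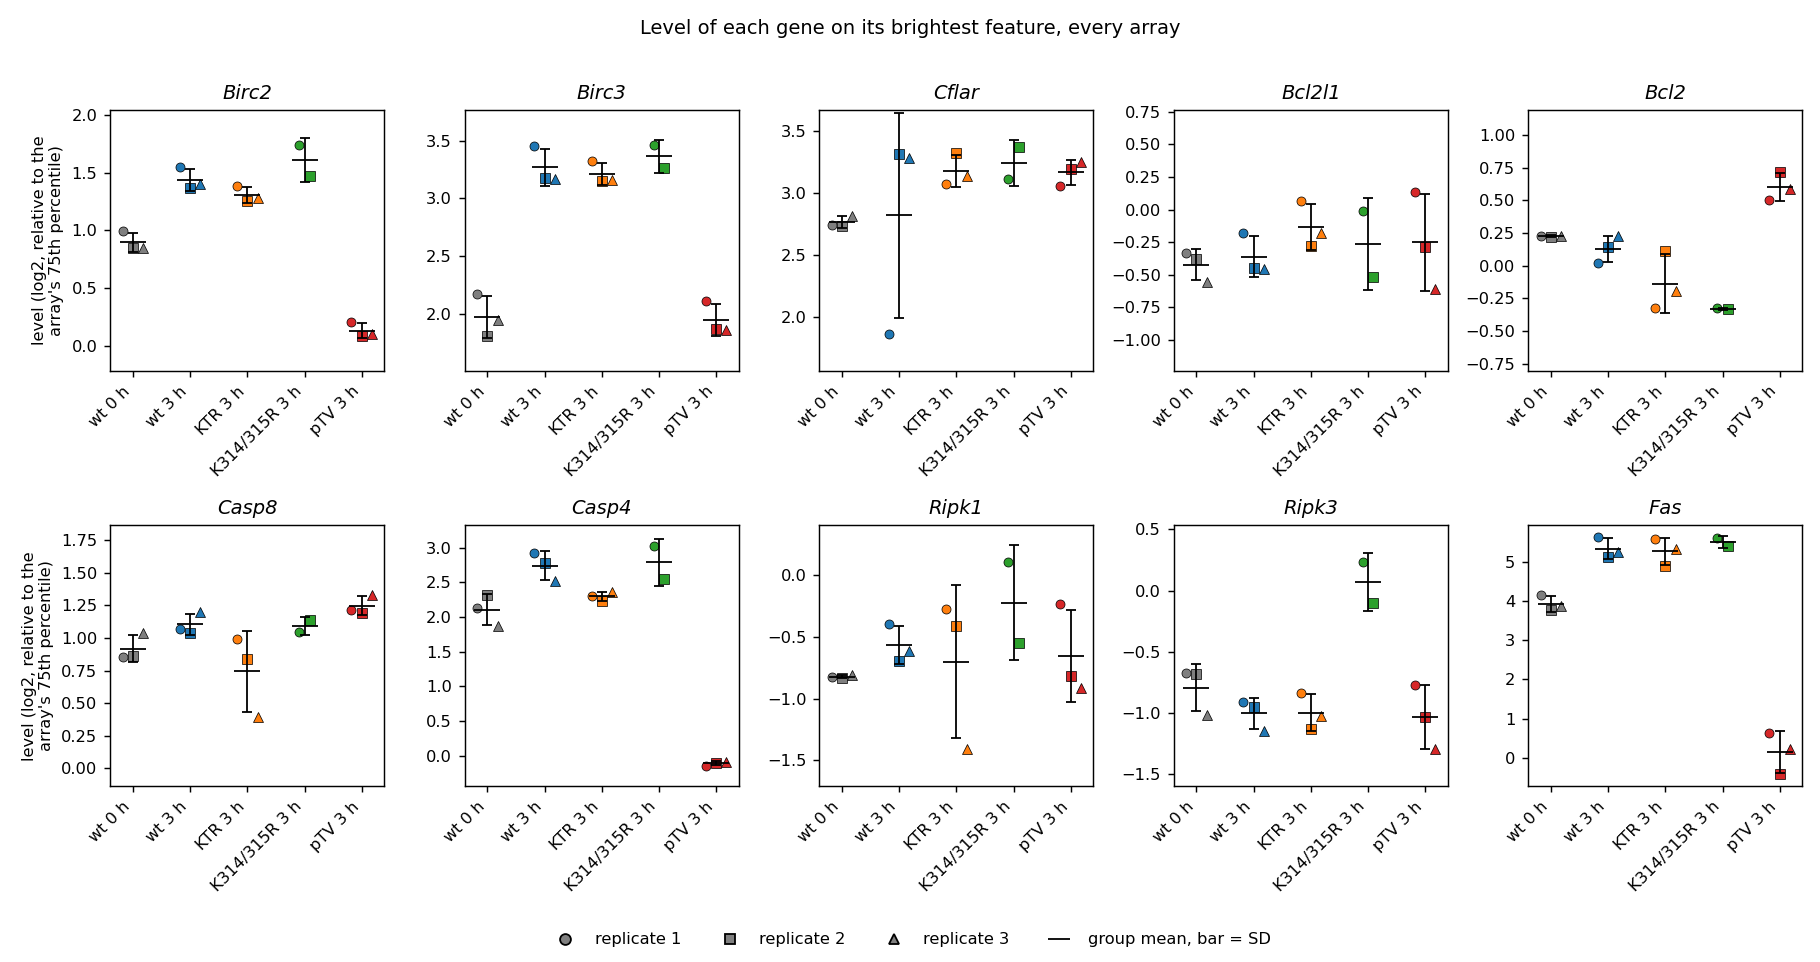
Level of each of the 10 genes on its brightest feature (vertical axes, log2 relative to the 75th percentile of the array, ranges differ between panels) on the 14 arrays in 5 groups; points are single arrays, horizontal marks the group means and bars the SD (n = 3, for K314/315R n = 2). *Birc2*, *Birc3*, *Casp4* and *Fas* lie lower in pTV than in every line with p65 at 3 h, *Bcl2* lies higher in pTV, and *Ripk3* is higher only in the 2 K314/315R arrays, at 0.23 and −0.10, against −0.68 and below on all other arrays.

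*Cflar*, the gene of the caspase-8 inhibitor c-FLIP, has 5 features, which did not give one answer. On the brightest (accession BC023121) the levels were 2.74, 2.74 and 2.82 in wild type cells at 0 h and 1.86, 3.31 and 3.28 at 3 h. They were 3.08, 3.32 and 3.14 in KTR, 3.11 and 3.37 in K314/315R, and 3.06, 3.20 and 3.25 in pTV cells. Wild type array 1 at 3 h stood apart as the lowest of all 14 arrays, on this feature of 1 spot. With it the log2 difference with TNFα was 0.05 (SE 0.30, adjusted p = 0.962), and without it 0.53 (adjusted p = 0.0378).

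The next brightest *Cflar* features did not show this low array. On the feature for NM_207653, the levels were −1.55, −1.24 and −1.41 in wild type cells at 0 h and −0.93, −0.86 and −1.03 at 3 h, and on the feature for Y14041 −2.61, −2.46 and −2.60 at 0 h and −1.96, −1.98 and −2.22 at 3 h. Both were higher with TNFα, 1.37-fold (adjusted p = 0.0202) and 1.42-fold (adjusted p = 0.0229), although leaving out any of wild type arrays 1 and 2 at 3 h or 1 and 3 at 0 h put either feature past an adjusted p of 0.05 (0.0724 to 0.0994), as did no filter on dim features (0.0716 and 0.0759) and normexp background correction (0.594 for both). In K314/315R cells the same features stood at −1.45 and −1.36, and at −2.78 and −2.62, in the range of unstimulated wild type cells or below it, while KTR cells had −0.91, −0.76 and −0.94, and −1.98, −1.86 and −2.19. The difference of K314/315R from wild type at 3 h was −0.65 (log2, SE 0.12, adjusted p = 0.0258) for Y14041 and −0.46 (adjusted p = 0.0530) for NM_207653, and it missed the threshold for Y14041 when K314/315R array 1 or 2, or wild type array 1 or 2 at 3 h, was left out (adjusted p = 0.105, 0.0618, 0.0726 and 0.0848). It also missed it with slide fitted as a random block (0.0604), quantile normalization (0.0945), no filter on dim features (0.0802), a fit of only these groups (0.0939) and normexp background correction (0.833), and under normexp without wild type array 1 the difference was −0.21 (adjusted p = 0.996). The pTV cells were not low on these features, with −0.83, −0.93 and −0.93, and −1.98, −2.08 and −2.16. K314/315R cells lay below pTV cells on both features (adjusted p = 0.0056 and 0.0031) and below KTR cells on both (adjusted p = 0.0200 and 0.0126), with the limit of slide 4 given above. Against KTR, NM_207653 missed the threshold without K314/315R array 1 or 2 or KTR array 2 (adjusted p = 0.0816, 0.0748 and 0.0545), with slide fitted as a random block (0.0575) and in a fit of only these groups (0.197), and Y14041 without K314/315R array 1 (0.0590) and in that fit (0.146). None of these 4 calls passed with normexp background correction (adjusted p = 0.433 or above). On the brightest feature the K314/315R arrays overlapped with the wild type, KTR and pTV arrays. The remaining 2 *Cflar* features were dim, and one of them was not well above background on any unstimulated wild type array. On these 2 features K314/315R over wild type was −0.07 and −0.10 (adjusted p = 0.959 and 0.891). K314/315R over pTV was 0.10 and 0.01 (adjusted p = 0.904 and 0.988), and the arrays overlapped in each case.

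**Figure D2:**
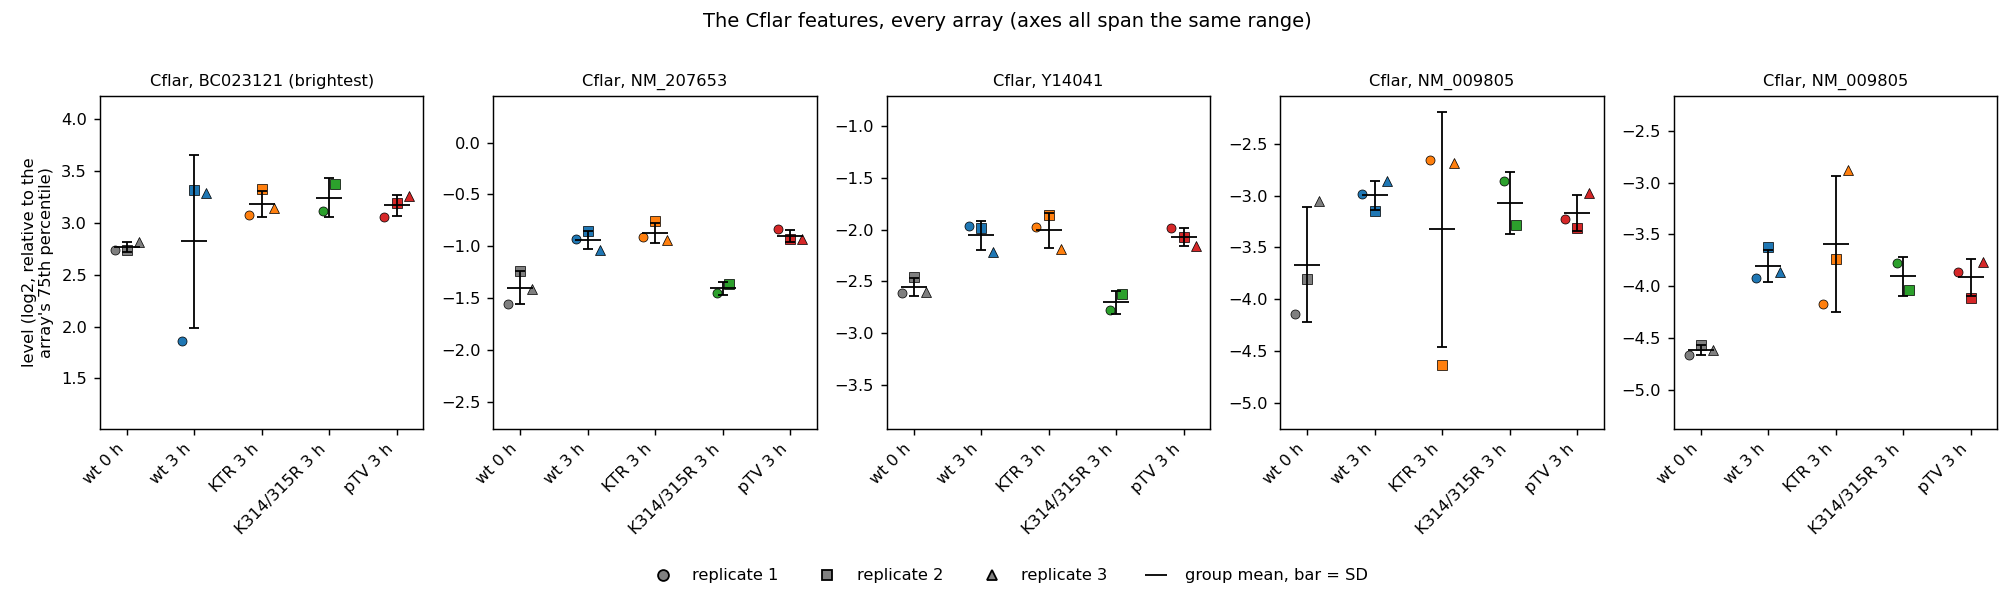
Levels of the 5 *Cflar* features, brightest on the left (vertical axes, log2 relative to the 75th percentile of the array, each spanning an equal range), on the 14 arrays in 5 groups; points are arrays, horizontal marks the means and bars the SD. On the 2 features next to the brightest, both K314/315R arrays lie with the unstimulated wild type arrays and below the others. On the brightest and the 2 dimmest they do not, and wild type array 1 at 3 h lies low on the brightest at 1.86.

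*Bcl2l1*, which encodes BCL-XL, had levels of −0.61 to 0.13 over all 14 arrays, and the groups overlapped in every comparison of its brightest feature, which has 10 spots. Its log2 difference was 0.06 with TNFα (95% interval −0.34 to 0.47) and −0.11 for wild type over pTV (−0.51 to 0.30). None of its 3 features passed the test in any of the 7 comparisons, and with the slide as a block one of the dimmer features passed for wild type over pTV, at −0.31 (adjusted p = 0.0128).

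*Bcl2* went the other way from *Birc2* and *Birc3*. On its brightest feature, with 10 spots, the levels were 0.23, 0.22 and 0.23 in wild type cells at 0 h and 0.02, 0.14 and 0.22 at 3 h. They were −0.33, 0.11 and −0.20 in KTR, −0.32 and −0.33 in K314/315R, and 0.50, 0.72 and 0.58 in pTV cells. All 3 pTV arrays lay above all 11 arrays of cells with p65, with or without TNFα. Wild type cells at 3 h had 0.720-fold the pTV level (log2 difference −0.47, SE 0.11, adjusted p = 0.0132), KTR cells 0.599-fold (adjusted p = 7.6e-04) and K314/315R cells 0.525-fold (adjusted p = 2.7e-04). The value for wild type over pTV missed the threshold without wild type array 1 (adjusted p = 0.0685) or pTV array 2 (adjusted p = 0.0626). With normexp background correction it also missed it (−0.41, adjusted p = 0.394), as did KTR over pTV (−0.61, adjusted p = 0.0647). A feature for another transcript (NM_177410) gave −0.64 for wild type over pTV (adjusted p = 3.4e-04, and 0.0784 with normexp). It lay at 0.34, 0.23 and 0.36 in pTV cells against −0.60 to −0.21 on the other 11 arrays. The third, dim feature gave −0.59 (adjusted p = 0.147, and 0.0051 with the slide as a block). TNFα itself gave −0.10 in wild type cells (95% interval −0.34 to 0.15). K314/315R cells were lower than wild type cells on the brightest feature without array overlap, by −0.46, which did not pass the test (adjusted p = 0.0843).

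Among the caspases, *Casp4* followed p65. Its levels were 2.13, 2.32 and 1.87 in wild type cells at 0 h and 2.93, 2.78 and 2.52 at 3 h. KTR cells had 2.31, 2.23 and 2.36, K314/315R cells 3.03 and 2.55, and pTV cells −0.14, −0.11 and −0.09. The pTV arrays lay about the 75th percentile and far below every other array, including unstimulated wild type cells. Wild type over pTV at 3 h was 7.24-fold (log2 difference 2.86, SE 0.15, adjusted p = 9.7e-08). TNFα gave 1.55-fold in wild type cells (adjusted p = 0.0308), which missed the threshold when wild type array 1 or 2 at 3 h, or 1 or 3 at 0 h, was left out (adjusted p = 0.129, 0.105, 0.0888 and 0.136). KTR cells were lower than wild type cells at 3 h without overlap, by −0.44 (SE 0.15), with arrays 1 and 2 in the range of unstimulated wild type cells and array 3 above it, but this did not pass (adjusted p = 0.349, unadjusted p = 0.0115). The difference was −0.62, −0.55 and −0.16 within slides 1, 2 and 3. K314/315R over wild type was 0.05 (95% interval −0.32 to 0.41).

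*Casp8*, the initiator caspase of the death receptors, had levels of 0.85, 0.86 and 1.04 in wild type cells at 0 h, and 1.07, 1.04 and 1.20 at 3 h. KTR cells had 0.99, 0.84 and 0.40, K314/315R cells 1.04 and 1.14, and pTV cells 1.21, 1.19 and 1.33. KTR arrays were below all wild type and all pTV arrays at 3 h. KTR cells had 0.706-fold the pTV level (log2 difference −0.50, SE 0.13, adjusted p = 0.0251). The difference came to −0.33 (adjusted p = 0.0554) without KTR array 3. It also missed the threshold without pTV array 1, 2 or 3 (adjusted p = 0.0506, 0.0567 and 0.0860). The same held with normexp background correction (adjusted p = 0.503), no filter on dim features (0.0603) and a fit of only these groups (0.143). KTR over wild type was −0.36 and did not pass (adjusted p = 0.415, unadjusted p = 0.0205), and it was −0.08, −0.20 and −0.80 within slides 1, 2 and 3 and −0.19 (adjusted p = 0.664) without KTR array 3. *Casp8* did not pass with TNFα (0.18, 95% interval −0.11 to 0.48) or for wild type over pTV (−0.14, −0.44 to 0.15).

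*Ripk1* and *Ripk3* encode the kinases of the necroptotic complex, and they differed from each other. *Ripk1* on its brightest feature had −0.83, −0.83 and −0.81 in wild type cells at 0 h and −0.40, −0.69 and −0.61 at 3 h. KTR cells had −0.28, −0.41 and −1.41, K314/315R cells 0.10 and −0.55, and pTV cells −0.23, −0.82 and −0.92. The spread differed between groups, with an SD of 0.62 in KTR cells and 0.013 in wild type cells at 0 h. All wild type arrays at 3 h lay above those at 0 h (log2 difference 0.26, adjusted p = 0.740). No comparison passed the test on this feature. One of its other features was higher in K314/315R than in pTV cells, by 0.47 (adjusted p = 0.0285). Without K314/315R array 1 the difference was 0.53, and without array 2 it was 0.42. The call was lost without pTV array 1 (adjusted p = 0.0726), with no filter on dim features (0.0711) and in a fit of only these groups (0.115). With normexp background correction the difference was 0.31 (adjusted p = 0.935).

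*Ripk3* had levels of −0.68, −0.68 and −1.02 in wild type cells at 0 h, −0.91, −0.95 and −1.14 at 3 h, −0.84, −1.13 and −1.02 in KTR and −0.77, −1.03 and −1.30 in pTV cells. In K314/315R cells it stood at 0.23 and −0.10, above all 12 other arrays, which overlapped with each other. The other 4 groups did not differ beyond their spread, and KTR over wild type was 0.00 (95% interval −0.33 to 0.34). K314/315R over wild type was 2.10-fold (log2 difference 1.07, SE 0.17, adjusted p = 0.0172), over pTV 2.14-fold (adjusted p = 7.4e-04), and KTR over K314/315R was −1.06 (adjusted p = 0.0096). Over wild type, the adjusted p was 0.0513 without wild type array 2 at 3 h and 0.0690 without K314/315R array 1, at log2 differences of 1.09 and 0.90. With normexp background correction K314/315R over wild type was 0.83 (adjusted p = 0.833). With no filter on dim features its adjusted p was 0.0529, and in a fit of only these groups 0.0559. Under normexp K314/315R over pTV was 0.88 (adjusted p = 0.116) and KTR over K314/315R −0.93 (adjusted p = 0.567). KTR over K314/315R also missed the threshold in a fit of only these groups (adjusted p = 0.0739). *Ripk3* has a single feature of 1 spot, and its rise sits on the slide that held K314/315R alone.

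*Fas*, the death receptor, had the widest range of the 10 genes. The levels on its brightest feature, with 10 spots, were 4.15, 3.76 and 3.86 in wild type cells at 0 h and 5.63, 5.10 and 5.25 at 3 h. KTR cells had 5.57, 4.89 and 5.33, K314/315R cells 5.61 and 5.39, and pTV cells 0.64, −0.42 and 0.23. The lines with p65 overlapped at 3 h, unstimulated wild type cells lay below them, and pTV cells with TNFα lay far below unstimulated wild type cells. Wild type over pTV at 3 h was 36.2-fold (log2 difference 5.18, SE 0.25, adjusted p = 6.3e-08) and TNFα gave 2.65-fold in wild type cells (log2 difference 1.41, SE 0.25, adjusted p = 0.0079). A second feature (AK086933) gave 21.5-fold (adjusted p = 1.9e-10) and 2.09-fold (adjusted p = 1.9e-04). With normexp background correction its log2 difference with TNFα was 0.82 and did not pass (adjusted p = 0.594). On the brightest feature KTR over wild type was −0.07 (95% interval −0.62 to 0.49) and K314/315R over wild type 0.17 (−0.45 to 0.79).

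Counted over the 10 genes, 4 were higher with TNFα in wild type cells (*Birc2*, *Birc3*, *Casp4* and *Fas*) and 0 were lower, where 4.68% of all tested features passed in either direction. The median log2 difference of the 10 was 0.22, against −0.04 over all features. With normexp background correction none of the 4 passed, at log2 differences of 0.33 for *Birc2*, 0.98 for *Birc3*, 0.35 for *Casp4* and 1.07 for *Fas* (adjusted p = 0.224 to 0.594), and without wild type array 1 at 3 h under that correction 1 did (*Birc3*). For wild type over pTV, where 14.8% of all features passed, these 4 genes were higher, *Bcl2* was lower and 5 did not pass, with a median of 0.06 against −0.03. For KTR over wild type, 0 of the 10 passed by limma, where 0.235% of all features did, and 3 (*Casp4*, *Casp8* and *Bcl2*, all lower in KTR) had an unadjusted p under 0.05, where 9.19% of all features did. For K314/315R over wild type 1 passed (*Ripk3*, higher), where 2.21% of all features did. *Birc2*, *Birc3*, *Casp4* and *Fas* were also higher than in pTV in KTR cells, at 2.26-fold, 2.40-fold, 5.32-fold and 34.6-fold, and in K314/315R cells, at 2.78-fold, 2.67-fold, 7.48-fold and 40.8-fold. With *Bcl2* and *Casp8* lower, 6 passed for KTR over pTV (15.2% of all features passed). With *Ripk3* higher and *Bcl2* lower, 6 passed for K314/315R over pTV (26% of all features). Under normexp background correction *Bcl2* and *Casp8* did not pass for KTR over pTV (adjusted p = 0.0647 and 0.503). *Ripk3* did not pass for K314/315R over pTV under that correction (adjusted p = 0.116). The comparisons with pTV share the pTV arrays. Between the mutants only *Ripk3* passed of the 10, where 5.41% of all features did.

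**Figure D3:**
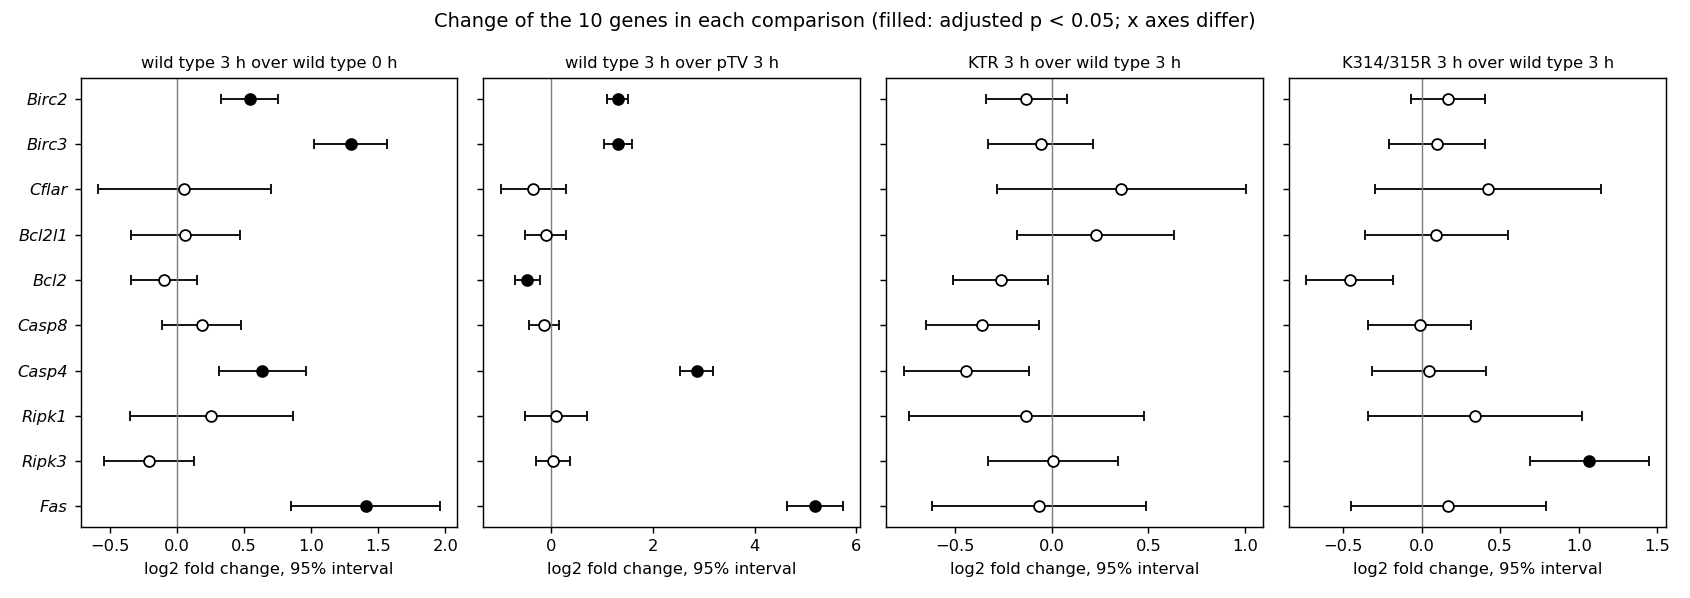
Log2 fold change of each of the 10 genes on its brightest feature (horizontal axes, ranges differ between panels) in 4 comparisons, with bars for the 95% interval from the fit over all 14 arrays; filled points passed at an adjusted p under 0.05. *Fas* at 5.18 and *Casp4* at 2.86 lead the comparison of wild type with pTV, KTR over wild type holds no filled point, and *Ripk3* at 1.07 is the one filled point of K314/315R over wild type.

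Other genes of the same pathways were taken from a list of 68, of which 66 were on the array and 55 were tested. With TNFα in wild type cells 7 rose and 1 fell, where 4.68% of all tested features passed in either direction. The largest increases were in *Tnfaip3* (A20, an enzyme that edits ubiquitin and limits NF-κB) at 3.83-fold, *Ripk2* (the kinase of the NOD receptors) at 3.04-fold and *Traf1* (an adaptor that binds cIAPs) at 2.89-fold. *Bmf*, a BH3-only killer protein, was the one that fell, to 0.394-fold (adjusted p = 0.0031), from 0.75, 0.50 and 0.83 at 0 h to −0.58, −0.72 and −0.65 at 3 h. Of 6 NF-κB survival targets, 4 rose with TNFα (*Tnfaip3*, *Ier3*, *Sod2* and *Bcl3*), and of 11 pro-apoptotic genes of the BCL2 family *Bid* rose and *Bmf* fell. With the slide as a block, the count with TNFα was 15 (13 higher and 2 lower) in place of 8, where 15% of all features passed.

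For wild type over pTV 18 of the 55 were higher and 3 lower, where 14.8% of all features passed in either direction. With the slide as a block 21 were higher and 7 lower, where 28.6% of all features passed. *Zbp1*, a nucleic acid sensor that recruits RIPK3, was not well above background on any pTV array and was at least 65.2-fold higher in wild type cells, with levels of 1.79, 1.31 and 0.70 there (adjusted p = 6.8e-08). The lower bound compares the wild type mean with the detection floor of the pTV arrays. *Tnfaip3* was 11.4-fold and *Ripk2* 6.55-fold higher in wild type cells. *Pmaip1* (NOXA, a BH3-only protein) at 0.225-fold, *Ier3* at 0.570-fold and *Tnfrsf21* (death receptor 6) at 0.586-fold were lower. *Ier3* was thus higher in wild type cells with TNFα than without and higher still in pTV cells with TNFα, and *Bmf* was lower with TNFα but its level with TNFα was 1.28 (log2) above that of pTV cells (adjusted p = 0.0012). Of the necroptosis and inflammatory death genes 3 of 6 were higher with wild type p65 than with the empty vector, among them *Mlkl*, which encodes the executor of necroptosis (0.99, adjusted p = 2.9e-05).

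In KTR and in K314/315R cells, 0 of the 55 passed by limma against wild type, where 0.235% and 2.21% of all features did. An unadjusted p under 0.05 was found for 4 and 7 of them, shares below the 9.19% and 17.4% of all features. *Zbp1* was at 0.39, −0.22 and −0.34 in KTR cells, below all wild type arrays at 3 h. Its difference of −1.32 did not pass in the fit without blocks (adjusted p = 0.169). It did with the slide as a block (adjusted p = 0.0311), where 2.07% of all features passed. *Zbp1* is named for that change of call, after its values were seen.

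**Figure D4:**
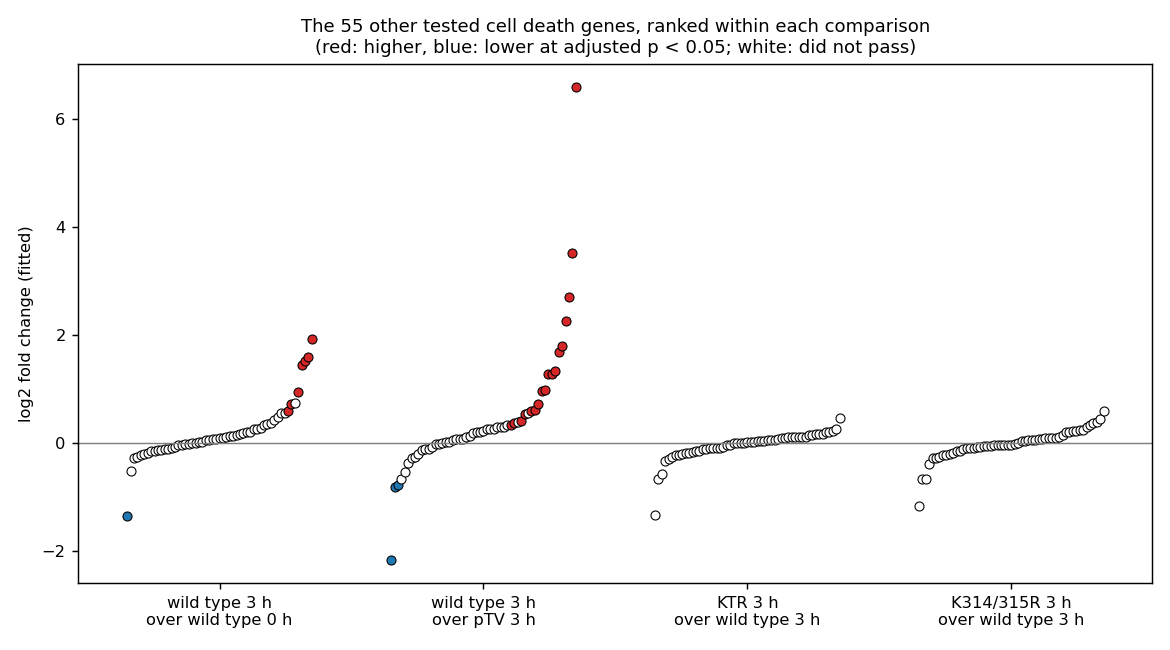
Fitted log2 fold changes of the 55 tested genes of the pathway list (vertical axis), ranked from lowest to highest within each of 4 comparisons along the horizontal axis; red points were higher and blue points lower at an adjusted p under 0.05, white points did not pass. With TNFα 8 genes passed and for wild type over pTV 21, against 0 for each mutant over wild type; the uppermost point of the second comparison is *Zbp1*, for which the fitted value is no bound because the pTV arrays were not above background.

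For the 3 genes with the largest range of group means, the genes of most alike pattern over the 14 arrays were taken among 14394 genes. *Fas* was closest to *Slfn2* (r = 0.994), *Gbp2* (r = 0.993) and *Steap4* (r = 0.991). *Casp4* was closest to *Igtp* (r = 0.992), *Cfb* (r = 0.991) and *Tyki* (r = 0.990), and *Birc2* to *Osmr* (r = 0.989), *Mt2* (r = 0.984) and *Jak2* (r = 0.982). These are Pearson correlations of log2 levels, given as a description, over arrays that fall into 5 groups with pTV apart from the rest. *Gbp2* and *Igtp* encode interferon-inducible GTPases, and *Cfb* encodes complement factor B.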

How the data were processed

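Total RNA of 14 cultures was labelled with Cy3 and hybridized to Agilent whole mouse genome arrays. The authors deposited the scanner output of Agilent Feature Extraction (9.1 per the labels, 9.1.3.1 on slide 4 and 9.1.1.1 on the other slides per the file headers), with a background-corrected intensity for each of 43379 spots, and flags for spots above background, and a table of normalized intensities whose software settings are not given in the sources used here beyond Rosetta Resolver defaults.

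Control spots and outlier spots (1 to 326 per array) were left out, spots of a feature averaged, divided by the 75th percentile of the array and taken to log2. A feature was tested if well above background on all arrays of at least 1 group (22172 of 41174). Groups were compared with limma 3.58.1 in R 4.3.3, two-sided, on all 14 arrays, with Benjamini-Hochberg adjustment over all tested features. The brightest tested feature stood for a gene, and other features are named where direction or call differed. From the pathway list the 3 largest increases and decreases that passed are named. The most alike genes are the 3 with the highest Pearson's r. The members and lists were chosen with earlier results of these data known. Cultures of a group were prepared on different days. Array number limits the precision. The scripts were tested on simulated data.

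The pairing of arrays by replicate number was examined by correlating deviations from group means. On slides 1 to 3 the 18 same-number pairs had r of 0.308 to 0.624 and the 36 other pairs −0.516 to 0.113, so the number, which is the slide, pairs them. With K314/315R, r was −0.09 to 0.416 in 8 same-number pairs and −0.42 to 0.418 in 16 others, and its numbers were not taken as pairs. Alternatives were other background correction, scaling, filters, the deposited table, blocks, probe averaging and leaving out each array. Promoter motifs were searched in RefSeq sequences of GRCm38.p6.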

Additional observations from a re-analysis of the deposited data

Results flagged for a closer look

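*Ripk3* was marked because its effect differed between the mutants by a test of the difference itself. KTR over K314/315R was −1.06 on the log2 scale (SE 0.17, limma adjusted p = 0.0096), with all 3 KTR arrays (−0.84, −1.13 and −1.02) below both K314/315R arrays (0.23 and −0.10). The K314/315R arrays lay alone on slide 4, and slide and cell line cannot be told apart. No group had the 4 arrays that the test for single outlying arrays needs, and *Cflar* on wild type array 1 at 3 h (1.86 against 3.31 and 3.28) is therefore described without one.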

How the results depend on the processing

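Counts of the 10 genes that passed with TNFα (4), for wild type over pTV (5), KTR over pTV (6) and K314/315R over pTV (6) stayed within 1.5 times under all alternatives but those named here. With normexp background correction 0 passed with TNFα, 0 for K314/315R over wild type and 0 for KTR over K314/315R, and the pathway list gave 2 with TNFα and 8 for wild type over pTV. Under normexp wild type array 1 at 3 h correlated with the others of its group at 0.930, against 0.977 to 0.997 for the other arrays. Leaving it out as well, an alternative chosen after seeing the data, gave 1, 0 and 0 of the 10 genes, and 5 and 10 of the pathway list. The cause was not tested. The study's ratio limits gave 2 with TNFα and 10 of the pathway list for wild type over pTV, by construction. An unadjusted p gave 3 for KTR over wild type, 2 for K314/315R over wild type and 4 for KTR over K314/315R. Of the pathway list it gave 17, 4 and 7 with TNFα, for KTR and for K314/315R over wild type. In these 3 comparisons 17%, 9.19% and 17.4% of all features did so, and for KTR over K314/315R 21.4%. With no filter on dim features 0 passed for K314/315R over wild type and 1 of the pathway list for KTR over wild type. Fitting only the 2 groups compared left 0 for K314/315R over wild type and 0 for KTR over K314/315R. For the pathway list in K314/315R over wild type, scaling by the median of bright features, requiring signal on all arrays and the authors' table gave 1 each, and averaging a gene's features gave 2.

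With the replicate block the pathway list gave 14 with TNFα, 1 for KTR over wild type and 5 for K314/315R over wild type. The 10 genes gave 2 for K314/315R over wild type (*Bcl2* was added, −0.45, adjusted p = 0.0296). They gave 2 for KTR over K314/315R (*Birc2* was added, −0.28, adjusted p = 0.0218). K314/315R numbers are not pairs, however. No share of all features is given for this block, so these counts cannot be weighed against one. The slide as a random block gave 13 and 1 of the pathway list with TNFα and for KTR over wild type. As a fixed block it gave 15 and 1, where 15% and 2.07% of all features passed. No replicate block or slide block changed another call of the 10 genes on its brightest feature. Leaving out each array in turn gave 3 to 4 of the 10 genes with TNFα, 4 to 5 for wild type over pTV, 0 to 0 for KTR over wild type, 0 to 2 for K314/315R over wild type, 5 to 6 for KTR over pTV, 6 to 6 for K314/315R over pTV and 1 to 1 for KTR over K314/315R, and for the pathway list 6 to 9, 17 to 23, 0 to 1 and 0 to 2 in the first 4 comparisons. Among the first 4 comparisons, no log2 fold change of the 10 genes that passed turned its sign in these alternatives.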
